A study of Homo sapiens with 4 samples.

Results

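The genes described here carry out chromosome segregation and cell division. A list of 59 named genes of the centromere, kinetochore, spindle checkpoint, mitotic kinases, condensin, cohesion release, mitotic kinesins, spindle and cytokinesis was matched by symbol to a table of 10147 genes, and 54 of the 59 were found. *BUB1*, *BUB1B*, *MAD1L1*, *NCAPD2* and *SMC4* were not analysed here. The data were from TT-seq, in which RNA labelled by a brief exposure to 4-thiouridine (4sU) is isolated and sequenced, so that the values measure RNA synthesis and not the RNA stored in the cell. All samples were K562 cells, a human chronic myelogenous leukemia line, whose *IWS1* gene was edited to carry an N-terminal dTAG. IWS1 is an elongation factor of RNA polymerase II, and the dTAG lets the ligand dTAG7 trigger degradation of the protein. The 2 control libraries came from tagged cells given DMSO, and the 2 dIWS1 libraries from tagged cells given 500 nM dTAG7, both for 1 h and then with 500 µM 4sU for 5 min. No untagged cells were in the comparison, so all groups carry the tagged allele.

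In mitosis, the centromere is marked by the histone variant CENP-A, on which a layer of inner proteins, the constitutive centromere-associated network (CCAN), holds the NDC80 and MIS12 complexes that grip spindle microtubules. Checkpoint proteins wait on kinetochores that have not yet attached, Aurora and Polo-like kinases correct and drive the process, condensins compact the chromosomes, and separase cuts cohesin to release sister chromatids. Most of these genes are transcribed mainly in late S and G2/M phase. Many of their promoters hold a cell cycle genes homology region (CHR), a site bound by the MuvB core of the DREAM and MYB-MuvB complexes, often with a CCAAT box, the site of the factor NF-Y.

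That promoter arrangement was visible in the sequences of these genes. Promoter windows from 250 bases before to 50 bases after the start site were taken from RefSeq (GRCh38.p14), where 45 of the 54 genes had 55 windows. *BUB3*, *KNTC1*, *CENPH*, *CENPL*, *TPX2*, *TTK*, *AURKA*, *NCAPH2* and *BIRC5* had no entry. The following windows, one for each role that had such a window, run from 80 bases before to 20 bases after the start site and are written on the strand of the gene. They are shown because each holds a CHR and a CCAAT box, marked in capitals, while the genes behind them differed in their response, from *KIF4A* with a log2 fold change of −0.78 to *SPC25* with −0.15.
*KIF4A* (chrX:70290024-70290123, plus strand): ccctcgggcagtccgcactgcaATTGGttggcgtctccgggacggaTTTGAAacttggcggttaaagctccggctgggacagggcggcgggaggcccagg
*NCAPD3* (chr11:134223948-134224047, minus strand): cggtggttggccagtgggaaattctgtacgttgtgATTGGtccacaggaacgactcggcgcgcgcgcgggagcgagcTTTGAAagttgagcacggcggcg
*ESPL1* (chr12:53268219-53268318, plus strand): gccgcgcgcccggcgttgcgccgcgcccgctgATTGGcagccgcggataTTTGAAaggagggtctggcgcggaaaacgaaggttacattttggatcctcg
*PLK1* (chr16:23678809-23678908, plus strand): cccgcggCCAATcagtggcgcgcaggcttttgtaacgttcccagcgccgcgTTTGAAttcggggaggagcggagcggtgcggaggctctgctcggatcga
*PRC1* (chr15:90994516-90994615, minus strand): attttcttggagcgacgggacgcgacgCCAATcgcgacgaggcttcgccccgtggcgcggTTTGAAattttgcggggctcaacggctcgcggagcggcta
*CENPN* (chr16:81007134-81007233, plus strand): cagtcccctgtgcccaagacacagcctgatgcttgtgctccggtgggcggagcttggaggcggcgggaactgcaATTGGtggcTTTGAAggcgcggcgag
*SPC25* (chr2:168890411-168890510, minus strand): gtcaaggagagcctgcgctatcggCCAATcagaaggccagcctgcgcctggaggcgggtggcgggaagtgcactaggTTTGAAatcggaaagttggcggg

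The CHR was searched as TTTGAA or TTCGAA and the CCAAT box as CCAAT, each on both strands, so that TTCAAA and ATTGG count as the reverse forms. A CHR was present in a window of 28 of 45 genes (62.2%), compared to 1194 of 7975 other listed genes (15%) and 16.4% of all 35116 promoter windows. Restricted to the stretch from 60 bases before to 50 bases after the start, 27 of 45 genes held it (60%), against 395 of 7975 other genes (4.95%). A CCAAT box was found in 32 of 45 genes (71.1%) and in 43.3% of the other genes, and both motifs in 19 of 45 genes (42.2%) against 6.45%. An E2F-type TTTCCCGC was found in 3 of 45 genes (6.67%) and 3.45% of the other genes. Overlap between motifs was not removed. These counts are of letters in the reference and not of bound sites. The genes with a CHR had a median log2 fold change of −0.30, with 13 of 28 called lower, and those without one had −0.28, with 6 of 17 called lower. Over all genes tested the median was −0.42, with 65.0% called lower.

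The deposited table gives a mean over library columns for each gene, and the whole reads behind it could be recovered. These showed a single control column that enters the mean 2 times and 2 different dIWS1 columns, so the comparison was of 1 control library with 2 dIWS1 libraries. The control column held 29832118 reads in genes, dIWS1 column 1 had 20684301 and dIWS1 column 2 had 20886697, and the size factors from the spike-in RNAs were 1.01, 0.993 and 0.919. Of 13 K562 marker genes 12 were listed, with 129 to 16164 control reads, and of 7 genes of other lineages 0 were listed. *IWS1* itself, whose protein and not its RNA was the target, had 3684 control reads and 2334 and 2427 reads in the dIWS1 columns, a log2 fold change of −0.55 with an SE of 0.15 (limma, adjusted p = 0.000882). In RNA from bulk cells, fewer cells making a transcript and less synthesis per cell cannot be told apart.

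RNA synthesis of the mitosis genes was lower after depletion of IWS1, but less so than that of the median gene. With spike-in scaling, 25 of the 54 genes fell and 0 rose (limma voom, adjusted p under 0.05 over 10007 genes), which is 46.3% against a background of 65.0% of all genes tested that fell and 0.130% that rose. At an unadjusted p under 0.05 the counts were 28 lower and 0 higher, against 69.3% and 0.180% of all genes tested. Limma-trend called 17 lower and 0 higher, against 54.9% and 0.0799%. As log2 fold changes of dIWS1 over control, the median was −0.29, with quartiles of −0.44 and −0.21, and for all genes tested it was −0.42, with quartiles of −0.60 and −0.26. The values of the mitosis genes ran from −0.79 to 0.04, each with an SE between 0.13 and 0.154, and 40 of 54 lay above the median of all genes. The fall depends on the spike-in scaling: with columns scaled by total reads the median of the mitosis genes was 0.15, with 4 genes called lower and 19 higher, and that of all genes tested was 0.02, with 13.5% called lower and 18.3% higher.

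Both dIWS1 columns were below the control in 50 of the 54 genes (92.6%, against 92.7% of all genes tested). The exceptions were *CENPQ*, *NCAPG*, *CENPC* and *MAD2L1*, which lay below the control in column 1 and at or above it in column 2. The median log2 ratio was −0.41 in column 1 and −0.22 in column 2, against −0.47 and −0.37 over all genes tested. The gap between the mitosis genes and all genes was thus smaller in column 1 than in column 2. The lone control column has no spread of its own and was assumed to vary like the dIWS1 columns, and p-values measure only the spread between these columns.

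**Figure D1:**
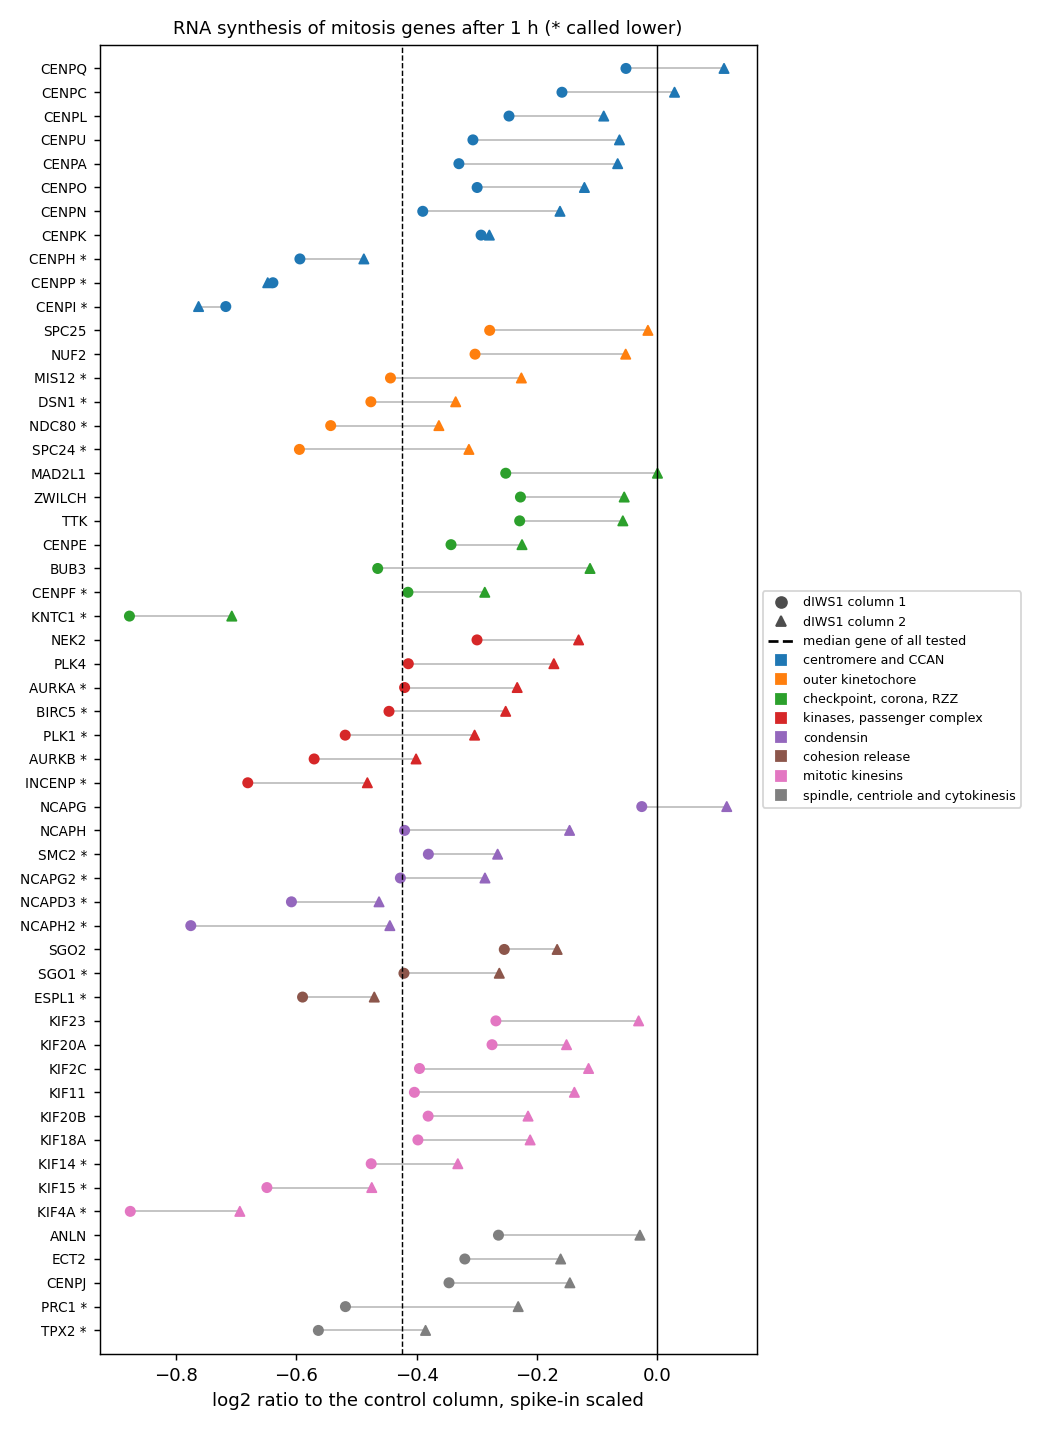
Log2 ratio of each mitosis gene to the control column (horizontal axis, spike-in scaled), circles for dIWS1 column 1 and triangles for column 2, grouped by role in colour, with a solid line at 0 and a dashed line at the median of all genes tested (−0.42). The 25 genes marked * fell, and 4 genes (*KNTC1*, *KIF4A*, *CENPI*, *CENPP*) had both columns left of −0.60. Under scaling by total reads 19 genes are called higher in place of 0.

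The role groups are described with spike-in scaling, and with columns scaled by total reads the median of each of the 8 groups turned above 0, from 0.07 to 0.23. The background for the counts that fell is 65.0% of all genes tested, and no group was tested against it. Outer kinetochore, condensin and cohesion release (66.7% each) and the kinases and passenger genes (71.4%) lay near that share. The other groups were at 27.3% to 40%. In the wider list described below, the shares of the role groups ran from 43.8% to 100%. Among the genes of the centromere and the CCAN, 3 of 11 fell and the group median was −0.21. Of 9 further genes of this role in the wider list 5 fell (55.6%), with a median of −0.33. In what follows, reads are given in the order control, dIWS1 column 1, dIWS1 column 2, and column 2 was scaled up the most. *CENPI* (chromosome X, 101098204 to 101181859), which with CENPH and CENPK forms a core of the CCAN, had 1917, 1147 and 1029 reads, and both dIWS1 columns were low, with log2 ratios of −0.72 and −0.76. Its log2 fold change was −0.74 with an SE of 0.143 (limma, adjusted p = 2.61e-06). *CENPP*, a partner of CENPO in the CCAN, had 11228, 7093 and 6527 reads and fell by 0.64 on the log2 scale. *CENPH* had 1335, 870 and 867 reads and fell by 0.54. The third gene of that core, *CENPK*, had 4417, 3547 and 3315 reads, a log2 fold change of −0.29 that missed the threshold (limma, adjusted p = 0.0842).

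The other centromere genes among the 11 were closer to the control. *CENPQ*, another partner of CENPO, had 1588, 1507 and 1562 reads, with log2 ratios of −0.05 and 0.11 on either side of the control and a log2 fold change of 0.03 (SE 0.143). *CENPC*, the protein that joins the CENP-A nucleosome to the outer kinetochore, had 14903, 13137 and 13846 reads and a log2 fold change of −0.07. *CENPA* itself, the centromeric histone, had 847, 663 and 737 reads and −0.20. None of these 3 genes passed the test under spike-in scaling (limma, adjusted p from 0.168 to 0.848). *CENPN*, which binds the CENP-A nucleosome, had 2131, 1600 and 1735 reads and a log2 fold change of −0.27. *CENPL*, its partner, had 2150, 1783 and 1841 reads and −0.17. For *CENPO* the reads were 2288, 1829 and 1916, and for *CENPU*, to which Polo-like kinase docks, 4998, 3976 and 4358, with log2 fold changes of −0.21 and −0.18. In these 4 genes column 1 was the lower of the dIWS1 columns, and none passed the test.

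In the outer kinetochore 4 of 6 genes fell, with a median of −0.37. The 4 subunits of the NDC80 complex, which binds microtubules, separated into pairs. *SPC24* had 869, 566 and 637 reads and *NDC80* had 2220, 1499 and 1572, with log2 fold changes of −0.45 in both (limma, adjusted p = 0.00164 and 0.00465). By contrast *SPC25*, the direct partner of SPC24, had 1778, 1442 and 1602 reads and −0.15, and *NUF2*, the partner of NDC80, had 2439, 1945 and 2142 reads and −0.18, and neither passed the test. The difference between the pairs was not tested. Of the MIS12 complex, which links the CCAN to NDC80, *DSN1* had 953, 674 and 688 reads and fell by 0.41. *MIS12*, the gene of this list with the fewest reads and the shortest span (4438 bp), had 235, 170 and 183 reads and fell by 0.34 (limma, adjusted p = 0.045).

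Of the checkpoint and corona genes 2 of 7 fell, and the group held the largest fall of the 54 genes. This was *KNTC1* (chromosome 12, 122527249 to 122626396), the ROD subunit of the ROD-ZW10-Zwilch (RZZ) complex that recruits dynein and the checkpoint to kinetochores. It had 9284, 4971 and 5178 reads, with ratios of −0.88 and −0.71, and a log2 fold change of −0.79 with an SE of 0.149 (limma, adjusted p = 1.55e-06). *ZWILCH*, of the same complex, had 2417, 2031 and 2119 reads and −0.14 without passing the test. *CENPF*, a large protein of the corona, had 8519, 6288 and 6360 reads and fell by 0.35. *CENPE*, the kinetochore kinesin, had 7757, 6017 and 6045 reads and a log2 fold change of −0.28.

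Of the checkpoint proper, *MAD2L1*, *TTK* and *BUB3* did not pass the test, and *BUB1*, *BUB1B* and *MAD1L1* were not analysed here. In the wider list described below, 3 of 4 further checkpoint and RZZ genes fell, with a median of −0.53, against 65.0% of all genes tested. *MAD2L1*, which encodes the MAD2 inhibitor of the anaphase-promoting complex (APC/C), had 955, 789 and 870 reads and a log2 fold change of −0.12, the highest of this group, with column 2 level with the control. *TTK*, the MPS1 kinase that starts checkpoint signalling, had 3185, 2674 and 2788 reads and −0.14. *BUB3*, the adaptor of the BUB kinases, had 1069, 762 and 901 reads and −0.29, just outside the threshold (limma, adjusted p = 0.0508). Its dIWS1 columns were the furthest apart of all 54 genes, with ratios of −0.46 and −0.11.

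Among the mitotic kinases and the chromosomal passenger complex 5 of 7 genes fell, with a median of −0.35. The 3 passenger genes of this list all fell. *CDCA8*, a further passenger gene from the wider list described below, had 1751, 1312 and 1408 reads and −0.29. It did not pass the test (limma, adjusted p = 0.0673). *INCENP*, the scaffold, had 2762, 1695 and 1801 reads and a log2 fold change of −0.58. *AURKB*, its kinase, had 477, 316 and 329 reads and −0.49. *BIRC5*, which encodes survivin, had 1033, 746 and 790 reads and −0.35 (limma, adjusted p from 0.000369 to 0.0172 for the 3 genes). *PLK1* had 1503, 1032 and 1109 reads and fell by 0.41, and *AURKA*, the spindle pole kinase, had 2191, 1611 and 1698 reads and fell by 0.33. The other genes of this group did not pass the test. *PLK4*, which starts centriole duplication, had 1728, 1276 and 1397 reads and −0.29. *NEK2*, which acts in centrosome separation, had 553, 442 and 460 reads and −0.22. In the wider list described below, 7 of 16 further kinase, cyclin and passenger genes fell (43.8%), with a median of −0.31, against 65.0% of all genes tested. Of the NEK kinases among them, *NEK9* (−1.19), *NEK6* (−0.64) and *NEK7* (−0.31) fell. *CDK1* (−0.04) and *CCNB1* (−0.13) did not pass the test.

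Of the condensin genes 4 of 6 fell, with a median of −0.34 and values from −0.61 to 0.04. *NCAPH2*, the kleisin of condensin II, had 529, 304 and 354 reads, with ratios of −0.78 and −0.44, and a log2 fold change of −0.61 (SE 0.132). *NCAPD3*, also of condensin II, had 6821, 4402 and 4508 reads and fell by 0.54. *NCAPG2*, the remaining condensin II gene here, had 16310, 11934 and 12179 reads, the most of the 54 genes, and fell by 0.36. *SMC2*, the ATPase shared by both condensins, had 2988, 2258 and 2264 reads and fell by 0.32, close to the threshold (limma, adjusted p = 0.0487). The genes of condensin I did not pass the test. *NCAPH* had 2206, 1622 and 1816 reads and −0.28. *NCAPG* (chromosome 4, 17810979 to 17844865) had 5272, 5095 and 5202 reads, near equal in all columns, and a log2 fold change of 0.04 (SE 0.151), the highest of the 54 genes. With limma-trend *NCAPG2* and *SMC2* no longer passed the test (limma-trend, adjusted p = 0.0832 and 0.109), which leaves 2 of 6 condensin genes, and the difference between condensin I and condensin II was not tested.

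In cohesion release 2 of 3 genes fell. *ESPL1*, which encodes separase, had 1669, 1091 and 1097 reads and fell by 0.53. *SGO1*, the shugoshin that protects mitotic centromeric cohesion, had 1636, 1202 and 1242 reads and fell by 0.34 (limma, adjusted p = 0.0274). *SGO2* had 1581, 1304 and 1283 reads and a log2 fold change of −0.21, which did not pass the test.

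Of the mitotic kinesins 3 of 9 fell. In the wider list described below 5 of 5 further kinesins fell, with a median of −0.40, against 65.0% of all genes tested. *KIF4A* (chromosome X, 70290104 to 70420886), a chromokinesin, had 3226, 1729 and 1816 reads, with ratios of −0.88 and −0.69, and a log2 fold change of −0.78 with an SE of 0.149 (limma, adjusted p = 1.96e-06). *KIF15*, which can help to keep the spindle bipolar, had 4460, 2798 and 2923 reads and fell by 0.56, and *KIF14*, which acts in cytokinesis, had 6041, 4274 and 4372 reads and fell by 0.40. The other 6 kinesins had log2 fold changes between −0.30 and −0.15. *KIF18A*, which damps chromosome movements, had 7302, 5452 and 5744 reads and −0.30. *KIF20B*, another cytokinesis kinesin, had 4650, 3513 and 3649 reads and also −0.30. *KIF11*, the main motor that pushes spindle poles apart, had 4895, 3640 and 4052 reads and −0.27. *KIF2C*, a microtubule depolymerase, had 2901, 2170 and 2441 reads and −0.25, with column 2 nearer to the control. *KIF20A*, a motor of the central spindle, had 423, 344 and 347 reads and −0.21. *KIF23*, the kinesin of centralspindlin, had 3085, 2520 and 2750 reads and −0.15, the highest of the group.

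Of the spindle, centriole and cytokinesis genes 2 of 5 fell. In the wider list described below 4 of 5 further cytokinesis genes fell, with a median of −0.34, against 65.0% of all genes tested. *TPX2*, which activates Aurora A on the spindle, had 8355, 5562 and 5826 reads and a log2 fold change of −0.47. *PRC1*, which bundles midzone microtubules, had 3806, 2614 and 2953 reads and −0.37. *ECT2*, the exchange factor that turns on RhoA at the cleavage site, had 5404, 4259 and 4403 reads and −0.24. *ANLN*, which encodes the ring scaffold anillin, had 8671, 7104 and 7741 reads and −0.15. *CENPJ*, listed by RefSeq as *CPAP* and needed for centriole growth, had 2459, 1903 and 2025 reads and −0.24. The last 3 did not pass the test.

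Because most genes moved one way, each gene was also set against the median gene. The dIWS1 columns were rescaled so that the median log2 fold change of all genes was 0, a shift of −0.42. On that scale the median of the mitosis genes was 0.13. *CENPQ* (0.45, limma, adjusted p = 0.0256) and *NCAPG* (0.47, limma, adjusted p = 0.031) were higher than the median gene, which is 2 of 54 genes against a background of 2.94% of all genes tested. At the same threshold 0 of 54 were lower, against 4.86%, and at an unadjusted p under 0.05 the counts were 3 lower and 4 higher, against 11.9% and 9.90% of all genes tested. With limma-trend 0 were lower and 0 higher, against 2.75% and 1.18%.

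The dIWS1 columns differed by a common offset that enters the SE of every gene, and an alternative added after the data were seen scaled every column to its own median gene, which brought the SE of the mitosis genes to between 0.0565 and 0.144. There 14 of 54 genes (25.9%) were higher than the median gene, against 13.8% of all genes tested, and 4 (7.41%) were lower, against 13.1%. Of the 8900 genes with a mean of at least 100, 15.4% were higher and 14.1% lower. The median SE in this fit was 0.0713 for the mitosis genes and 0.0822 for all genes tested, so the shares were not taken at equal precision. The 14 were *CENPC*, *CENPL*, *CENPO*, *CENPQ*, *CENPU*, *NUF2*, *SPC25*, *MAD2L1*, *TTK*, *ZWILCH*, *NCAPG*, *SGO2*, *KIF23* and *ANLN*. They included 5 of 11 centromere, 2 of 6 outer kinetochore, 3 of 7 checkpoint and 0 of 7 kinase and passenger genes. The rest were 1 of 6 condensin, 1 of 3 cohesion release, 1 of 9 kinesin and 1 of 5 spindle, centriole and cytokinesis genes. In the wider list described below, 18 of 99 genes (18.2%) were higher and 10 (10.1%) lower. Its kinase, cyclin and passenger group had 4 of 16 higher. Of the 54 genes *NCAPG* had the largest value on this scale, 0.47 (limma, adjusted p = 0.00056). The 4 lower genes were *CENPI*, *CENPP*, *KIF4A* and *KNTC1*, with values of −0.32, −0.22, −0.36 and −0.37. These are also the 4 genes with the lowest values under spike-in scaling.

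**Figure D2:**
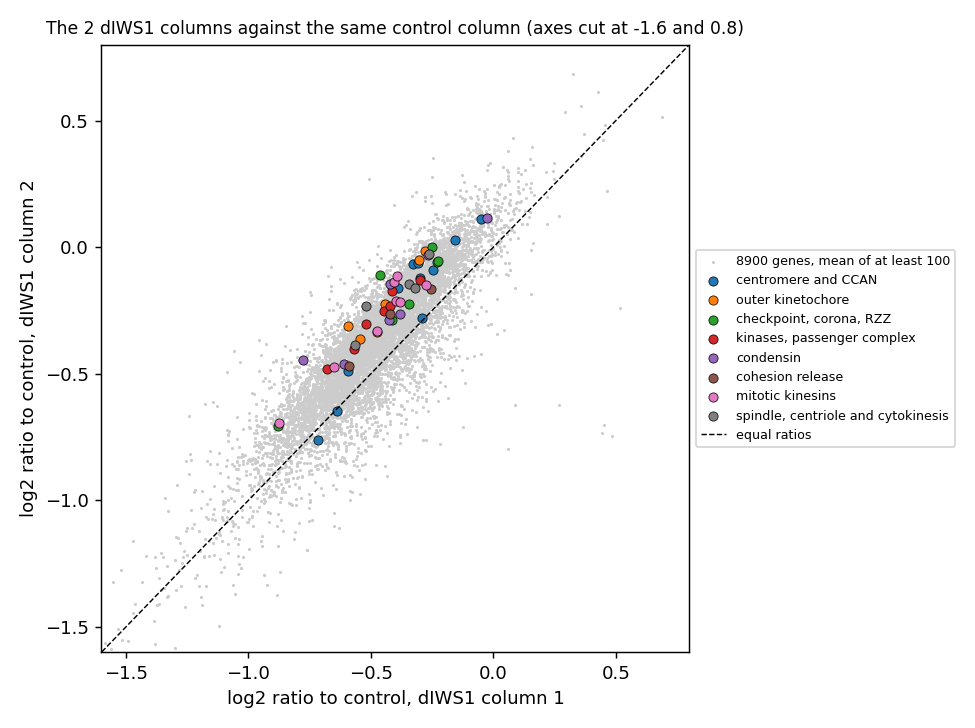
Log2 ratio to the control column in dIWS1 column 1 (horizontal) and column 2 (vertical), spike-in scaled, for the mitosis genes by role (colour) and for 8900 genes whose mean reached 100 (grey). Both axes share the same control column, so genes spread along the diagonal in part for that reason. Column 1 was lower than column 2 in 52 of the 54 mitosis genes, which lie above the dashed line of equal ratios, all but *CENPI* and *CENPP*.

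Levels were compared between genes as spike-in scaled reads per kb of gene span. The mitosis genes were made at a median level of 79.6 in the control column, with quartiles of 53.0 and 93.2, against 41.2 for all genes tested, with quartiles of 19.5 and 77.5. The highest levels were those of *NCAPG2* (219), *CENPC* (192) and *NCAPG* (154), and the lowest those of *CENPI* (22.7), *KIF4A* (24.4) and *SGO2* (27.0). Levels within one complex differed, as NCAPG2 stood at 219 and NCAPH2 at 31.6 in the control column. Across the 54 genes the log2 fold change had a Spearman correlation of 0.17 with the control level per kb, and 0.15 across 9959 genes with a span, where both quantities hold the same control column.

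**Figure D3:**
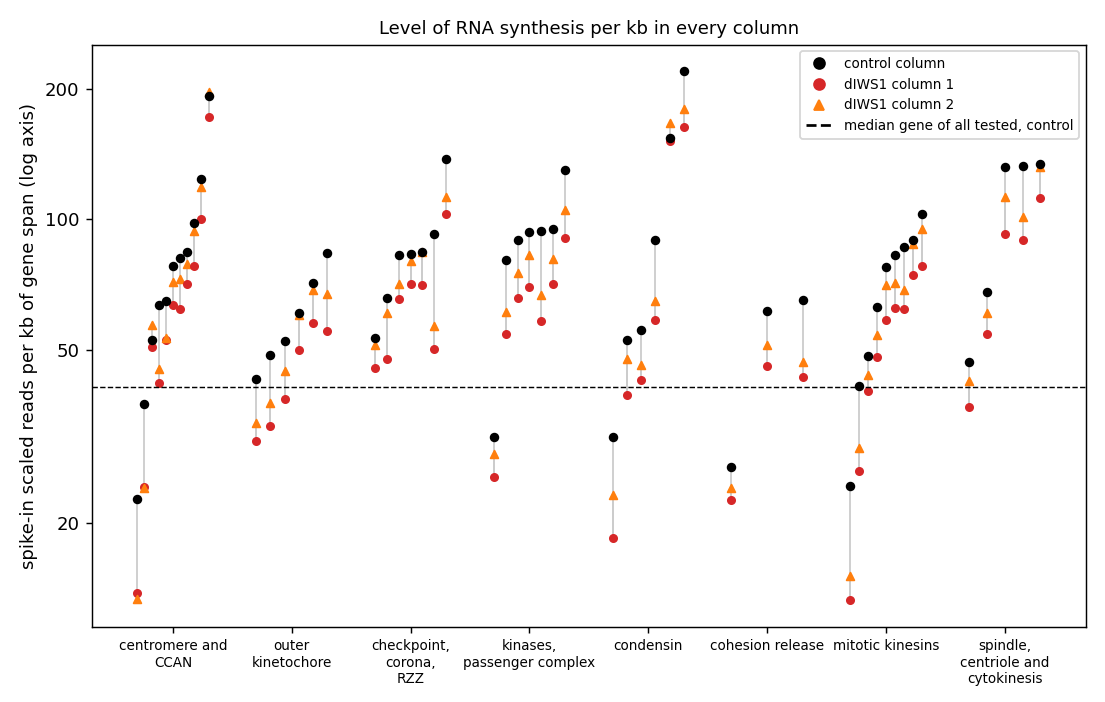
Spike-in scaled reads per kb of gene span (log axis) for the control (black), dIWS1 column 1 (red circles) and dIWS1 column 2 (orange triangles), with each mitosis gene as a vertical line within its role. The control levels run from 22.7 (*CENPI*) to 219 (*NCAPG2*), and the dashed line marks the control median of all genes tested (41.2).

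The mitosis genes had a median span of 33983 bp, from 4438 bp (*MIS12*) to 295062 bp (*CENPP*), and all genes tested had one of 27729 bp. In the class under 25 kb 9 of 15 genes fell (60%, median −0.34), against 63.3% of all genes of that class (median −0.44). From 25 to 50 kb 5 of 18 fell (27.8%, median −0.20), against 56.6% (median −0.34). From 50 kb on 11 of 21 fell (52.4%, median −0.32), against 73.2% (median −0.46). So the median was nearer to 0 than that of all genes in each class, and the middle class held the smallest shares in both. The 4 lowest genes all had spans over 80 kb, with 83656 bp for *CENPI*, 99148 bp for *KNTC1*, 130783 bp for *KIF4A* and 295062 bp for *CENPP*, and of the other genes over 80 kb *KIF15* with 106894 bp fell by 0.56, while *CENPE* with 92533 bp and *KIF18A* with 87538 bp had log2 fold changes of −0.28 and −0.30 and did not pass the test.

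The genes were also poorer in GC, with a median of 40.5% over the span (from 34.0% for *KIF18A* to 55.5% for *NCAPH2*) against 44.4% for all genes tested. Across the 54 genes the log2 fold change was lower where GC was higher (Spearman correlation −0.45), and the same was seen across 9959 genes (−0.34). With span the correlations were −0.15 and −0.01. These are across genes, which share the same libraries and are not independent replicates. By control reads, the median of the mitosis genes was −0.34 under 1000 reads and −0.34 from 1000 to 2000 reads, against −0.45 and −0.37 for all genes of those classes, so the gap was small in the second class. From 2000 to 4000 reads it was −0.26 and from 4000 reads on −0.30, against −0.37 and −0.45.

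**Figure D4:**
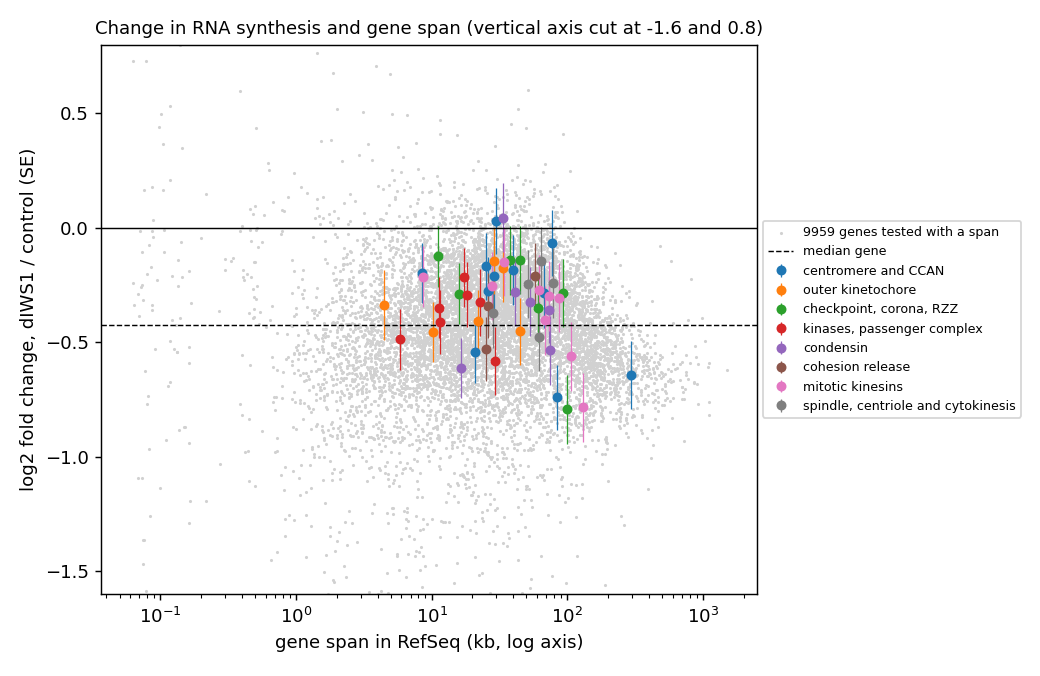
Log2 fold change (dIWS1/control, spike-in scaled, bars of 1 SE from limma) against gene span in RefSeq (log axis, kb) for the mitosis genes by role and for 9959 genes tested (grey), with the median of all genes tested as a dashed line (−0.42). Most mitosis genes lie between the dashed line and 0, and 3 genes near 100 kb (*CENPI*, *KNTC1*, *KIF4A*) lie lowest. Under scaling by total reads all points shift upwards and the median of the mitosis genes becomes 0.15.

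A wider set of 114 other mitotic genes, of the APC/C, cohesin, spindle assembly, cyclins and further kinetochore subunits, gave 99 genes in the table. Of these 64 fell and 0 rose (64.6%, median −0.40), near the background of 65.0% for all genes, and at an unadjusted p under 0.05 the counts were 74 and 0, against 69.3% and 0.180% of all genes tested. Relative to the median gene 1 of the 99 was lower and 2 were higher, against 4.86% and 2.94% of all genes tested. Of the APC/C genes, through which the checkpoint acts, 11 of 17 fell, with a median of −0.43, and of the spindle assembly genes 22 of 31, with a median of −0.44. The lowest of the 99 were *NEK9*, a kinase upstream of mitotic NEK kinases (2081, 916 and 814 reads, −1.19), and the centrosome scaffolds *PCNT* (5893, 3228 and 3375 reads, −0.76) and *CDK5RAP2* (12598, 7065 and 7192 reads, −0.74). The highest were *FBXO5*, which encodes the APC/C inhibitor EMI1 (2073, 2071 and 2181 reads, 0.12), *CEP55*, an organiser of abscission (716, 681 and 719 reads, 0.05), and *PLK2* (247, 234 and 228 reads, −0.02). *FBXO5* and *CEP55* were higher relative to the median gene (limma, adjusted p = 0.00733 and 0.00871), as were *CENPQ* and *NCAPG*.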

How the data were processed

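TT-seq libraries of 2 control and 2 dIWS1 samples were made by the authors with 4sU-labelled and unlabelled spike-in RNAs, aligned with STAR 2.6.0 to GRCh38 and tested with DESeq2 (submitters' processing notes and methods). Overlapping RefSeq genes were excluded by the authors and expressed genes were kept by a threshold on reads per kb, so each gene listed here passed that filter. The deposited table holds 1 comparison: a signal per gene (the mean over library columns of counts divided by spike-in size factors) and the authors' log2 fold change, its standard error, statistic, p-value and adjusted p-value. These comparison columns were used only as follows: the deposited log2 fold change showed which columns lie on which side and narrowed the search for reads to within 0.02. The table names no direction, and dIWS1/control was taken from the study's description. All 10136 genes with a mean above 0 had 1 solution in whole reads. Of the 54 genes described, 52 had 1 solution from the mean alone, and for the other 2 (*CENPC* and *NCAPG2*) the solutions from the mean alone included the one used. The control column entered the mean 2 times and was counted once, so 1 control library was not analysed here.

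Reads were tested with limma voom (limma 3.58.1, R 4.3.3), library sizes in proportion to the spike-in size factors, at least 10 reads summed over the columns, and Benjamini-Hochberg adjustment over 10007 genes. The variance prior pooled the spread over all genes, so that p-values rest on that common spread. The procedures were tested on simulated data. Total-read scaling, other thresholds, pseudocounts of 0.5 and 5, filters, and each dIWS1 column left out were alternatives. Counting intervals are not printed, and precision is given by the SE. Spans and GC came from RefSeq GRCh38.p14, with 9351 genes matched by symbol, 169 by gene number, 576 by synonym and 51 not matched. The genes, their roles and the wider mitotic list were chosen with earlier results of these data known. Values in every column were to be given for *IWS1*, the lowest and highest gene of each role, the 3 highest and 3 lowest levels per kb, every gene called relative to the median gene and every gene not called lower, and of the wider list for the 3 lowest and 3 highest with at least 100 normalized counts on average. The genes in addition were named by role.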

Additional observations from a re-analysis of the deposited data

How the results depend on the processing

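No paired analysis was possible because a lone control column was recovered, and the recovered columns carry no replicate numbers. The count of 25 genes called lower became 16 at an adjusted p under 0.01 (48.8% of all genes tested), 4 with total-read scaling (13.5%) and 10 with a minimum log2 change of 0.5 (37.6%, an alternative chosen after seeing the data), and was between 17 and 33 elsewhere. The count of 0 called higher became 19 with total-read scaling (18.3% of all genes). Relative to the median gene, 0 lower became 4 with the control column entered 2 times (15.6% of all genes) or with every column scaled to its own median gene (13.1%). There 2 higher became 4 (11.1%) and 14 (13.8%), and 0 at an adjusted p under 0.01 and with limma-trend at a pseudocount of 0.5 or 5. Other mitotic genes went from 64 lower and 0 higher to 10 and 22 with total-read scaling, against 13.5% and 18.3% of all genes. The median of −0.29 became 0.13 when recentred on the median gene and 0.15 with total-read scaling, and lay between −0.41 and −0.22 with a dIWS1 column left out (1 against 1, with no test). Counting motifs on the strand of the gene only, the share of promoter windows with a CCAAT box went from 63.6% to 32.7%, and with both motifs from 34.5% to 14.5%. Of 52 genes below 0, 38 turned above 0 when recentred on the median gene and 38 with total-read scaling. Of those recentred, the 11 that had been called lower were *MIS12* (0.088), *DSN1* (0.019), *CENPF* (0.073), *AURKA* (0.099), *BIRC5* (0.076), *PLK1* (0.014), *SMC2* (0.10), *NCAPG2* (0.067), *KIF14* (0.020), *SGO1* (0.083) and *PRC1* (0.050). With total-read scaling, the 28 that were called on at least one of the scales were *CENPA* (0.24), *CENPC* (0.38), *CENPL* (0.27), *CENPO* (0.23), *CENPU* (0.26), *NUF2* (0.26), *SPC25* (0.30), *MIS12* (0.11), *DSN1* (0.037), *MAD2L1* (0.32), *TTK* (0.30), *ZWILCH* (0.30), *CENPE* (0.16), *CENPF* (0.091), *AURKA* (0.12), *BIRC5* (0.093), *PLK1* (0.031), *SMC2* (0.12), *NCAPG2* (0.085), *KIF23* (0.29), *KIF2C* (0.19), *KIF14* (0.039), *SGO1* (0.10), *SGO2* (0.23), *PRC1* (0.067), *ECT2* (0.20), *ANLN* (0.30) and *CENPJ* (0.20). With limma-trend *MIS12*, *CENPF*, *AURKA*, *SMC2*, *NCAPG2*, *KIF14*, *SGO1* and *PRC1* lost their call and 0 calls were gained. The lone control column limits every value, and a difference between control libraries could not be measured.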

Other observations

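The dIWS1 columns lay further apart in the mitosis genes than in the median gene. Column 1 minus column 2 had a median of −0.18 on the log2 scale over the 54 genes, from −0.35 (*BUB3*) to 0.05 (*CENPI*), and −0.12 over 8900 genes with a mean of at least 100. Column 1 was the lower in 52 of 54 mitosis genes (96.3%) and in 82.5% of those 8900 genes. By role, the median was −0.23 in the outer kinetochore genes, −0.20 in the spindle, centriole and cytokinesis genes, −0.19 in the kinases and passenger genes and −0.12 in cohesion release, and in the 99 other mitotic genes it was −0.14. *CENPI*, *CENPP* and *CENPK* had columns within 0.05 of each other. The cause was not tested.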
